A study of Rattus norvegicus with 30 samples.

Results

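The 10 genes described here encode the mitochondrial enzymes that carry an unsaturated acyl-CoA through the later steps of beta-oxidation, together with both subunits of the flavoprotein that takes electrons from the acyl-CoA dehydrogenases. Hadha and Hadhb encode the trifunctional protein, Echs1 and Hadh the shorter-chain hydratase and dehydrogenase, Acaa2 the thiolase, Eci1, Eci2 and Decr1 the auxiliary enzymes for double bonds, and Etfa and Etfb the electron transfer flavoprotein. The genes were chosen by symbol, and all probesets that carry only that symbol were used, which gave 15 of the 31042 probesets and 10 of the 14217 genes with a symbol of their own. A probeset is a set of array probes for 1 transcript, and all 15 passed the filter on dim signal. Hadha had 3 probesets, Hadh, Acaa2 and Eci1 had 2 each and the other genes 1. Unless a probeset is named, a gene is given by its brightest probeset.

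Frozen hepatocytes of male Sprague Dawley rats were thawed, plated on collagen under Matrigel and dosed on day 3 of culture with water, 0.5 mM or 10 mM sodium valproate. RNA was taken after 24 h or 48 h. This gave 6 groups of 5 cultures and 30 arrays, 1 per culture. Valproate, an antiepileptic drug, is itself a fatty acid with a short branched chain. By the labels the 6 groups differ in dose and time alone, and all received the same collagen, Matrigel and medium. Plated primary hepatocytes lose part of their liver state with time, which limits them as a model. The 5 cultures of a group were single wells of 6-well plates that the labels call independent. Neither the donor animals nor the wells that shared a plate are stated, and the p-values therefore cover variation among wells and not among animals. Plate and treatment cannot be told apart wherever all wells of a plate got the same dose.

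In the mitochondrion a long-chain acyl-CoA first loses electrons to a dehydrogenase, which hands them through the electron transfer flavoprotein to the respiratory chain. A hydratase adds water, a dehydrogenase oxidises the hydroxyl group and a thiolase cuts off acetyl-CoA; for long chains the trifunctional protein does all of these later steps on the inner membrane, with the hydratase and dehydrogenase on the alpha subunit and the thiolase on the beta subunit. The liver relies on this pathway in fasting, many of its genes are targets of the fatty acid receptor PPAR alpha, and valproate itself is partly broken down by it.

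The deposited signals had been scaled to a trimmed mean of 1500.5 to 1500.7 on every array, and all values below are log2(signal + 16). The 10 genes were among the brightest on the array: their brightest probesets lay between the 96.2 percentile, for Hadha, and the 99.4 percentile, for Eci1, of mean signal over all probesets. Replicates within a group correlated with a median r of 0.969 and a lowest r of 0.943. Of 8 hepatocyte markers 7 could be matched, and all of these lay between the 94.7 and the 99.96 percentile. Summed hepatocyte marker signal ran from 325030 to 419200 in water and from 269379 to 327075 at 10 mM after 24 h, and from 334321 to 367659 and from 296700 to 329929 after 48 h. At 0.5 mM it ran from 366299 to 447341 and from 356225 to 379925. Markers of other liver cells lay at or below the 70.7 percentile, apart from Epcam, a biliary marker at the 93.9 percentile. None was at 0, and 4 of 6 Kupffer, 6 of 8 stellate, 3 of 5 endothelial and 2 of 5 biliary markers on the array passed the filter. The summed Kupffer signal fell in a range of 2402.2 to 3593.9 in water and 1712.3 to 2031.8 at 10 mM after 24 h, the stellate sum in 4017.9 to 4588.4 and 3102.1 to 3639.7, the endothelial sum in 1003.4 to 1840.8 and 763.5 to 1208, and the biliary sum in 7196.7 to 8742.5 and 6381 to 7275. At 0.5 mM after 24 h these sums ran from 2630.6 to 3427.8, 4434.8 to 5451.7, 1372.7 to 1849.2 and 9205 to 9630.6. After 48 h, in the order water, 0.5 mM and 10 mM, the Kupffer sum ran from 1883.8 to 2542.6, 1836.9 to 2232 and 1329.3 to 2088.8, and the stellate sum from 4130.8 to 4844.3, 3663.2 to 5307.8 and 3126.9 to 3635.9. In the same order the endothelial sum ran from 995.9 to 1379.7, 1282.9 to 1619.5 and 856.4 to 1475.5, and the biliary sum from 10578.5 to 12264.2, 9376.1 to 11033.7 and 4967.4 to 6585. The part of cell makeup in the results below was not tested, and fewer cells of a type and less RNA per cell cannot be told apart in such lysates. The 3′/5′ ratio of the beta-actin probesets on the log2 scale, a measure of RNA integrity, stood above all others in 3 arrays: 2.76 in replicate 3 of water at 24 h, and 2.77 and 2.23 in replicates 3 and 4 of 0.5 mM at 48 h. The next highest were 1.74 in replicate 5 of 0.5 mM at 48 h and 1.70 in replicate 2 of water at 24 h. The same ratio for GAPDH was 0.40, 0.41 and 0.37 in the 3 arrays, in the same order. It was 0.30 in replicate 5 of 0.5 mM at 48 h, which was kept when those 3 were left out, and at most 0.23 elsewhere. Replicate numbers only name arrays. Changes computed without the 3 arrays of high actin ratio are given for the 10 genes and the related lists.

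Promoter sequences for 8 of the 10 genes were found in RefSeq's GRCr8 windows, and 3 stretches are shown because they belong to the genes on which the results turn. Hadha and Hadhb lie head to head and share a single interval of 243 bases between their starts, Echs1 is a gene that went opposite ways at the doses, and Eci1 is the brightest of the set. Capitals mark the core hexamer of nuclear receptor sites (AGGTCA, or TGACCT on the other strand) and the GC box (GGGCGG, or CCGCCC on the other strand). The strands are plus for the interval at chr6:31907558-31907800, minus for Echs1 at chr1:204333507-204333756 and plus for Eci1 at chr10:13961000-13961249, each printed 5′ to 3′ and ending at the base before the start of Hadha, Echs1 and Eci1.
Hadha and Hadhb: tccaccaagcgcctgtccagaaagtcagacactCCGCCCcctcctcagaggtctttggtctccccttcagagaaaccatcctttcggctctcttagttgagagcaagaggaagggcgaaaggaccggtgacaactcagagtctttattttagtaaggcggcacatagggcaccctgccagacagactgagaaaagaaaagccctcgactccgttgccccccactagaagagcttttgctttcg
Echs1: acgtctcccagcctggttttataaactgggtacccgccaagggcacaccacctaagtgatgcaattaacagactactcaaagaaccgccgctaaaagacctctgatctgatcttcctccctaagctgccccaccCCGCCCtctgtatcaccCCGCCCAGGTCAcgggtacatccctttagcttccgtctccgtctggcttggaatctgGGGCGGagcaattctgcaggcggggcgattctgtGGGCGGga
Eci1: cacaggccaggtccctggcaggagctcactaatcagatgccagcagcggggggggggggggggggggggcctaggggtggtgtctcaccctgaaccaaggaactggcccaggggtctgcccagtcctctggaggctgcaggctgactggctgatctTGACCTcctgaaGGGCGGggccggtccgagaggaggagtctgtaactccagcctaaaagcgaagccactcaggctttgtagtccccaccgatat
The AGGTCA hexamer was present in 2 of the 8 windows of 250 bases, those of Echs1, where its start lies 93 bases before the gene, and Eci1, on the other strand at 94 bases. It is found in 14.1% of 33469 RefSeq windows of that length. The GC box was in 7 of the 8 windows, beside 30.5% of all windows, and CCAAT, searched on both strands, in the windows of Etfa and Etfb, beside 34.0%. The windows of Hadha and Hadhb overlap and so share their single GC box. The letters are a description of these windows, and no binding was measured.

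At 0.5 mM valproate all 10 genes rose after 24 h and 9 rose after 48 h, and none fell. Over all 11604 genes tested, 12.7% were called higher at 24 h and 11.9% at 48 h. Both counts were the same with quantile normalization and with ribosomal centring, and at an unadjusted limma p under 0.05 none fell either. The median change of the 10 genes was 0.45 at 24 h and 0.44 at 48 h, beside 0.02 and -0.01 for all genes. Of the 15 probesets, 12 were called higher at 24 h and 9 at 48 h, beside 11.5% and 10.2% of all probesets. By brightest probeset the changes at 24 h ran from 0.29 for Etfa to 0.83 for Hadh, and at 48 h 11 probesets were called higher without the 3 arrays of high actin ratio.

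At 10 mM, against the same water cultures, the genes went different ways. After 24 h 5 rose (Hadha, Hadhb, Hadh, Eci1 and Eci2) and 3 fell (Echs1, Acaa2 and Etfa), and after 48 h 7 rose and 2 fell (Echs1 and Etfa). Over all genes 56.1% were called in either direction at 24 h and 49.8% at 48 h. Without the 3 arrays of high actin ratio the 24 h counts were 4 higher and 4 lower. They were 6 higher and 2 lower with quantile normalization and 6 and 3 with ribosomal centring, and at 48 h 8 and 2 with either. The median change of the 10 genes was 0.10 at 24 h and 0.22 at 48 h, beside 0.07 and 0.03 for all genes. It was 0.27 and 0.40 with quantile normalization, where all genes stood at -0.00 and -0.02, and 0.20 and 0.43 with ribosomal centring, where they stood at 0.16 and 0.23. Leaving out the 3 arrays of high actin ratio gave 0.05 at 24 h, beside 0.09 for all genes. Of the 15 probesets, 7 were higher and 3 lower at 24 h, and 9 higher and 2 lower at 48 h, beside 48.2% and 41.8% of all probesets called in either direction. The share of members called at 10 mM was thus nearer to the background than at 0.5 mM.

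**Figure D1:**
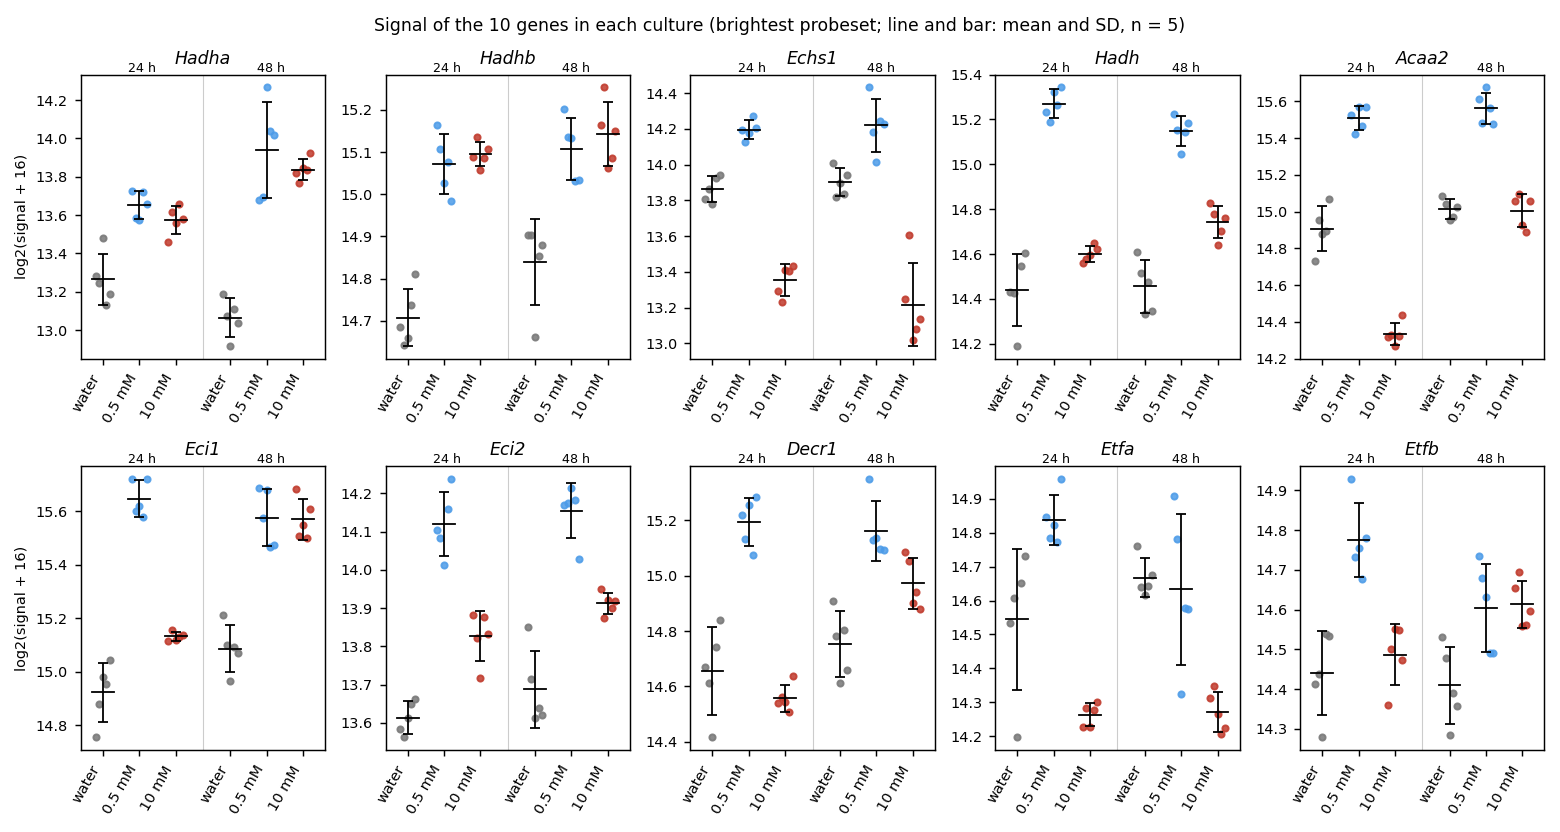
Signal of the 10 genes by their brightest probeset, 1 point per culture, with water in grey, 0.5 mM in blue and 10 mM in red at 24 h (left of the line) and 48 h (right); the y axis is log2(signal + 16), does not start at 0 and differs between panels, and black lines and bars are the mean and SD of 5 cultures. At 24 h the means of all genes but Hadhb were highest at 0.5 mM. The 24 h means of Echs1, Acaa2, Etfa and Decr1 at 10 mM lay below water, that of Decr1 without a call.

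**Figure D2:**
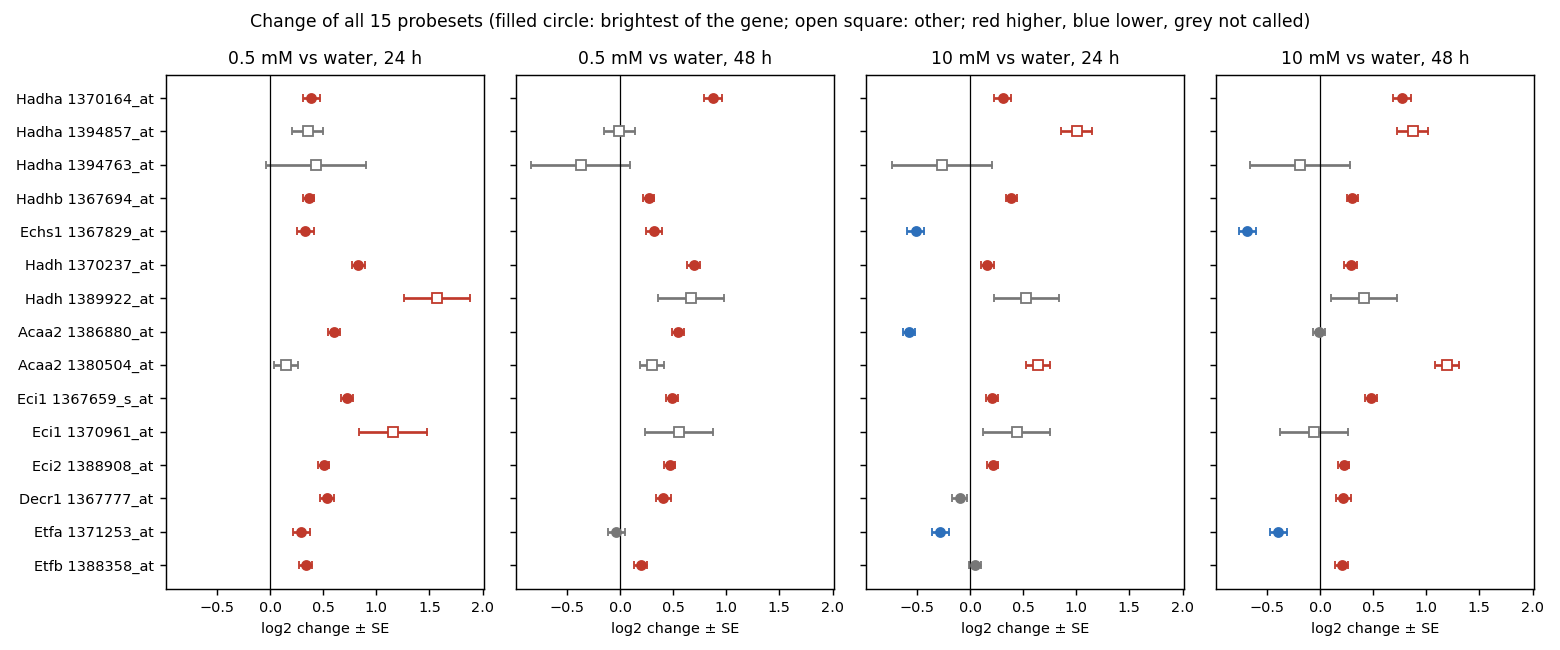
Change of all 15 probesets against water of the same time on the log2(signal + 16) scale, with bars of 1 SE from the linear model; filled circles are each gene's brightest probeset and open squares its others. At 0.5 mM no probeset was called lower, while at 10 mM Echs1, Etfa and, at 24 h, the brightest Acaa2 probeset were called lower.

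Transcripts of both subunits of the trifunctional protein rose at both doses by their brightest probesets, while the other Hadha probesets were not called at 0.5 mM. Hadha, the alpha subunit, read 13.28, 13.25, 13.48, 13.13 and 13.19 in water at 24 h, 13.73, 13.59, 13.58, 13.72 and 13.66 at 0.5 mM and 13.46, 13.61, 13.56, 13.66 and 13.58 at 10 mM. The lowest value at 0.5 mM lay above the highest water value, which was replicate 3 with its high actin ratio, whereas 1 array at 10 mM lay below it. The rise was 0.39 ± 0.08 (log2 change ± SE, n = 5 against 5, adjusted p = 0.000731), or 1.31-fold, at 0.5 mM and 0.31 ± 0.08 (adjusted p = 0.00204) at 10 mM. At 48 h Hadha read 13.19, 13.07, 12.92, 13.11 and 13.04 in water, 13.68, 13.69, 14.27, 14.04 and 14.02 at 0.5 mM and 13.82, 13.77, 13.85, 13.83 and 13.92 at 10 mM. The groups did not overlap with water, and the 0.5 mM arrays fell into a low pair, replicates 1 and 2, and a high trio, replicates 3, 4 and 5. Changes at this time were 0.88 ± 0.08 (adjusted p = 2.37e-09) and 0.77 ± 0.08 (adjusted p = 2.36e-09), or 1.83-fold and 1.71-fold. Replicates 3, 4 and 5 also had the highest actin ratios of that group, and the 0.5 mM rise without replicates 3 and 4, replicate 3 of water at 24 h being left out too and replicate 5 kept, was 0.73 (adjusted p = 1.12e-08).

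Hadhb, the beta subunit with the thiolase, read 14.69, 14.64, 14.66, 14.74 and 14.81 in water, 15.16, 15.11, 15.03, 15.08 and 14.98 at 0.5 mM and 15.09, 15.14, 15.06, 15.09 and 15.11 at 10 mM after 24 h. Its rise was nearly the same at the doses, 0.36 ± 0.05 (adjusted p = 3.08e-06) and 0.39 ± 0.05 (adjusted p = 1.09e-07), with no overlap with water. At 48 h Hadhb gave 14.90, 14.90, 14.66, 14.85 and 14.88 in water, 15.20, 15.14, 15.13, 15.03 and 15.04 at 0.5 mM and 15.16, 15.25, 15.06, 15.09 and 15.15 at 10 mM. The rises of 0.27 ± 0.05 (adjusted p = 0.000208) and 0.30 ± 0.05 (adjusted p = 9.79e-06) were again without overlap. Neither subunit differed between 10 mM and 0.5 mM beyond the test: the difference was -0.08 (95% interval -0.25 to 0.09) and -0.10 (-0.27 to 0.06) for Hadha at 24 h and 48 h. For Hadhb it was 0.02 (-0.08 to 0.13) and 0.04 (-0.07 to 0.14). That reading of Hadhb rests on the deposited scaling, since quantile normalization put it 0.36 and 0.27 higher at 10 mM (adjusted p = 4.62e-10 and 1.9e-07), and centring on ribosomal protein genes 0.19 higher at 24 h (adjusted p = 0.00416).

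Against water of the same time, the subunits parted at 48 h. Hadha minus Hadhb within an array ran from -1.84 to -1.71 in water, from -1.52 to -0.87 at 0.5 mM and from -1.49 to -1.21 at 10 mM, with no overlap between water and either dose. In water at 24 h it ran from -1.62 to -1.18, above the 48 h water range. The 48 h values at 10 mM lay inside this 24 h water range. The change of the water values between times was not tested for this difference. Against 48 h water the difference was higher by 0.61 at 0.5 mM and by 0.47 at 10 mM (exact two-sided permutation tests, p = 0.00794 each, the smallest that 5 against 5 can give, and 0.0159 adjusted over 12 tests). At 24 h the shifts were 0.02 (p = 0.817) and -0.08 (p = 0.373) by the same exact test, and the groups overlapped; quantile normalization made the latter -0.19 (adjusted p = 0.0476). Without the 3 arrays of high actin ratio the 0.5 mM shift at 48 h was 0.45 (exact permutation test, adjusted p = 0.0357). The shift rests on the brightest Hadha probeset: with the mean of all 3 it was 0.18 at 10 mM (exact permutation test, adjusted p = 0.667) and -0.10 at 0.5 mM (adjusted p = 0.857). The other Hadha probesets differed from the brightest. Probeset 1394857_at, at the 55.2 percentile, rose at 10 mM by 1.00 ± 0.15 (adjusted p = 6.38e-07) and 0.87 ± 0.15 (adjusted p = 8.57e-06), while its values at 0.5 mM were 0.36 ± 0.15 (adjusted p = 0.0729) and -0.01 ± 0.15 (adjusted p = 0.983). Probeset 1394763_at, just inside the filter at the 31.1 percentile, was called in none of the 9 comparisons, with SEs of 0.47 or more. Which transcript each probeset reads was not tested.

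Echs1, the hydratase for short chains and an enzyme of valine breakdown, rose at 0.5 mM and fell at 10 mM. At 24 h it read 13.81, 13.86, 13.78, 13.93 and 13.94 in water, 14.20, 14.13, 14.18, 14.27 and 14.21 at 0.5 mM and 13.29, 13.23, 13.41, 13.40 and 13.43 at 10 mM. The 3 groups were ordered without overlap, 0.5 mM above water and water above 10 mM. At 48 h the values were 14.01, 13.82, 13.89, 13.83 and 13.94 in water, 14.43, 14.18, 14.02, 14.24 and 14.22 at 0.5 mM and 13.25, 13.60, 13.02, 13.08 and 13.13 at 10 mM. The order was the same and again free of overlap, with replicate 2 the highest at 10 mM. The rises at 0.5 mM were 0.33 ± 0.08 (adjusted p = 0.00254) and 0.32 ± 0.08 (adjusted p = 0.00334). The falls at 10 mM were -0.51 ± 0.08 (adjusted p = 2e-06) and -0.68 ± 0.08 (adjusted p = 1.52e-08), or 0.702 and 0.623 of the water level. At 48 h the 10 mM cultures held 0.499 of the 0.5 mM signal, a log2 difference with a 95% interval of -1.16 to -0.84 (adjusted p = 3.13e-12). It kept these directions and calls under quantile normalization and ribosomal centring.

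Hadh, the hydroxyacyl-CoA dehydrogenase for shorter chains, had the largest 24 h rise at 0.5 mM among the brightest probesets of the 10 genes. It read 14.43, 14.43, 14.19, 14.55 and 14.61 in water, 15.23, 15.19, 15.32, 15.26 and 15.34 at 0.5 mM and 14.56, 14.58, 14.60, 14.65 and 14.62 at 10 mM. The 0.5 mM arrays lay far above the rest, while those of 10 mM overlapped the upper part of the water range. At 48 h Hadh read 14.61, 14.52, 14.33, 14.47 and 14.35 in water, 15.22, 15.15, 15.04, 15.15 and 15.18 at 0.5 mM and 14.83, 14.78, 14.64, 14.70 and 14.76 at 10 mM. Here every 10 mM array lay above the highest water array and below the lowest 0.5 mM array. The rise at 0.5 mM was 0.83 ± 0.06 and 0.69 ± 0.06 (adjusted p = 2.26e-11 and 8.89e-10), or 1.78-fold and 1.62-fold. At 10 mM it was 0.16 ± 0.06 (adjusted p = 0.0314) and 0.29 ± 0.06 (adjusted p = 0.000272). The 24 h call at 10 mM was lost in limma fits with no variance trend (adjusted p = 0.06) or with only the groups compared (adjusted p = 0.0744). With the actin ratio as a covariate the value was 0.11 (limma, adjusted p = 0.0805). The call was also lost without replicate 1, 2 or 3 of water or replicate 4 or 5 of 10 mM, with 0.10 (adjusted p = 0.151) without the 3 arrays of high actin ratio. The dim probeset 1389922_at rose by 1.57 ± 0.31 (adjusted p = 0.000346) at 0.5 mM and 24 h. That value was 1.21 without those arrays, and its other changes against water were not called, at 0.67 (0.5 mM, 48 h), 0.53 and 0.42 (10 mM). The first of these was called without the same arrays, at 0.91 (adjusted p = 0.0159), or without replicate 3 of 0.5 mM alone, at 0.88 (adjusted p = 0.0477).

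Acaa2, the thiolase that closes the cycle, gave different answers by probeset. The brightest probeset, 1386880_at, read 14.73, 14.96, 14.88, 14.90 and 15.07 in water, 15.53, 15.42, 15.57, 15.46 and 15.57 at 0.5 mM and 14.32, 14.33, 14.27, 14.32 and 14.44 at 10 mM after 24 h. The groups were apart in both directions, with 0.5 mM highest and 10 mM lowest. At 48 h it read 15.09, 15.04, 14.96, 14.97 and 15.03 in water, 15.61, 15.48, 15.68, 15.56 and 15.48 at 0.5 mM and 15.06, 15.10, 14.93, 14.89 and 15.06 at 10 mM, so that 10 mM overlapped water. The changes were 0.60 ± 0.06 and 0.55 ± 0.06 at 0.5 mM (adjusted p = 1.92e-09 and 1.3e-08). At 10 mM they were -0.57 ± 0.06 (adjusted p = 2.73e-10) and -0.01 ± 0.06 (adjusted p = 0.904). The 48 h value depended on scaling: it was 0.21 with quantile normalization (adjusted p = 0.000167) and 0.19 with ribosomal centring (adjusted p = 0.00611), where the median of all probesets stood at 0.24. Probeset 1380504_at, at the 84.9 percentile, read 11.16, 10.91, 10.79, 10.79 and 10.89 in water, 11.49, 11.34, 11.41, 10.92 and 10.88 at 0.5 mM and 12.28, 12.07, 12.10, 12.10 and 11.97 at 10 mM after 48 h. Its 10 mM arrays lay above all others. It rose at 10 mM by 0.64 ± 0.11 (adjusted p = 1.79e-05) and 1.20 ± 0.11 (adjusted p = 2.43e-10), where the brightest probeset fell or was not called. At 0.5 mM its values were 0.15 ± 0.11 (adjusted p = 0.339) and 0.30 ± 0.11 (adjusted p = 0.0556). The latter was called without the 3 arrays of high actin ratio, at 0.33 (adjusted p = 0.0416), and without replicate 1 of water or replicate 4 or 5 of 0.5 mM at 48 h. Which of the probesets follows the coding transcript was not tested.

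Transcripts of all 3 auxiliary enzymes rose at 0.5 mM by their brightest probesets. Eci1, the enoyl-CoA isomerase that moves double bonds, read 14.75, 14.88, 14.98, 14.95 and 15.04 in water, 15.72, 15.60, 15.62, 15.58 and 15.72 at 0.5 mM and 15.12, 15.16, 15.12, 15.13 and 15.14 at 10 mM after 24 h. The 3 groups did not overlap, and 10 mM lay between the others. By 48 h these were 15.21, 15.10, 14.96, 15.09 and 15.07 in water, 15.69, 15.57, 15.68, 15.47 and 15.47 at 0.5 mM and 15.68, 15.51, 15.55, 15.50 and 15.61 at 10 mM, and the doses overlapped each other well above water. The changes were 0.72 ± 0.06 and 0.49 ± 0.06 at 0.5 mM (adjusted p = 4.24e-11 and 8.49e-08) and 0.21 ± 0.06 and 0.48 ± 0.06 at 10 mM (adjusted p = 0.00208 and 1.33e-08). Its dim probeset 1370961_at rose at 0.5 mM and 24 h by 1.16 ± 0.32 (adjusted p = 0.00817), where replicate 5 of water was low at 6.06, and by 0.76 without that array. Its other changes against water were not called, at 0.56, 0.44 and -0.06.

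Eci2, an isomerase found in mitochondria and peroxisomes, read 13.58, 13.56, 13.61, 13.65 and 13.66 in water, 14.10, 14.08, 14.01, 14.16 and 14.24 at 0.5 mM and 13.88, 13.82, 13.72, 13.88 and 13.83 at 10 mM after 24 h. After 48 h it read 13.85, 13.72, 13.61, 13.64 and 13.62 in water, 14.17, 14.18, 14.21, 14.18 and 14.03 at 0.5 mM and 13.95, 13.88, 13.92, 13.90 and 13.92 at 10 mM. At both times 0.5 mM was highest, 10 mM was in the middle and the groups did not overlap. The rises were 0.51 ± 0.05 and 0.47 ± 0.05 at 0.5 mM (adjusted p = 1.31e-08 and 5.29e-08) and 0.21 ± 0.05 and 0.23 ± 0.05 at 10 mM (adjusted p = 0.000847 and 0.000569). Within an array Eci1 minus Eci2 rose by 0.22 at 0.5 mM and 24 h and by 0.26 at 10 mM and 48 h (exact permutation tests, p = 0.00794 each, 0.0159 adjusted over the 12 tests). By the same exact test the other shifts were -0.00 at 10 mM and 24 h (p = 0.96) and 0.02 at 0.5 mM and 48 h (p = 0.603). With the mean of both Eci1 probesets the called shifts were 0.43 (exact permutation test, adjusted p = 0.214) and -0.01 (adjusted p = 0.913). Quantile normalization gave 0.13 at 0.5 mM and 24 h (exact permutation test, adjusted p = 0.0635) and 0.12 at 10 mM and 24 h (adjusted p = 0.0408).

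Decr1, the dienoyl-CoA reductase needed for polyunsaturated chains, read 14.67, 14.61, 14.42, 14.74 and 14.84 in water, 15.22, 15.13, 15.25, 15.07 and 15.28 at 0.5 mM and 14.54, 14.56, 14.54, 14.51 and 14.64 at 10 mM after 24 h. The 0.5 mM arrays stood above both other groups, which overlapped. At 48 h Decr1 read 14.91, 14.78, 14.61, 14.80 and 14.66 in water, 15.35, 15.13, 15.14, 15.10 and 15.09 at 0.5 mM and 15.09, 15.05, 14.90, 14.94 and 14.88 at 10 mM, and 2 of the 10 mM arrays lay below the highest water array. It rose at 0.5 mM by 0.54 ± 0.07 and 0.41 ± 0.07 (adjusted p = 5.84e-07 and 3.86e-05). At 10 mM the value was -0.10 ± 0.07 at 24 h (adjusted p = 0.247) and a rise of 0.22 ± 0.07 at 48 h (adjusted p = 0.00889). Without replicate 3 of water the 24 h value was -0.16 and was called (adjusted p = 0.0436), while quantile normalization gave 0.09 (not called).

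Transcripts of both subunits of the electron transfer flavoprotein rose at 0.5 mM and 24 h, and at 10 mM that of the alpha subunit fell. Etfa read 14.53, 14.61, 14.20, 14.65 and 14.73 in water, 14.85, 14.78, 14.82, 14.77 and 14.96 at 0.5 mM and 14.23, 14.28, 14.23, 14.28 and 14.30 at 10 mM after 24 h. The 0.5 mM arrays lay above all water arrays, and the 10 mM arrays below 4 of 5, the exception being replicate 3 of water, whose actin ratio was high. After 48 h the values were 14.76, 14.64, 14.62, 14.64 and 14.68 in water, 14.91, 14.78, 14.33, 14.58 and 14.58 at 0.5 mM and 14.31, 14.35, 14.27, 14.21 and 14.22 at 10 mM. All 10 mM arrays were below water, whereas 0.5 mM spread on both sides of it, lowest in the same replicates 3, 4 and 5 in which Hadha was highest. The changes were 0.29 ± 0.08 (adjusted p = 0.00832) and -0.03 ± 0.08 (adjusted p = 0.826) at 0.5 mM. At 10 mM they were -0.28 ± 0.08 (adjusted p = 0.00417) and -0.39 ± 0.08 (adjusted p = 0.000151). Without the 3 arrays of high actin ratio the 0.5 mM values were 0.21 (adjusted p = 0.0082) and 0.09 (adjusted p = 0.38). With that ratio as a covariate they were 0.15 (adjusted p = 0.0391) and 0.14 (adjusted p = 0.0712). Quantile normalization ended the call at 10 mM and 24 h, at -0.12 (adjusted p = 0.113).

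Etfb, the beta subunit, read 14.41, 14.44, 14.28, 14.54 and 14.53 in water, 14.93, 14.73, 14.76, 14.68 and 14.78 at 0.5 mM and 14.36, 14.50, 14.55, 14.55 and 14.47 at 10 mM after 24 h. Only 0.5 mM stood clear of water at that time. After 48 h the values were 14.53, 14.48, 14.29, 14.39 and 14.36 in water, 14.73, 14.68, 14.63, 14.49 and 14.49 at 0.5 mM and 14.65, 14.70, 14.56, 14.56 and 14.60 at 10 mM, and 10 mM lay above all water arrays. Its rises were 0.33 ± 0.06 (adjusted p = 0.00013) and 0.20 ± 0.06 (adjusted p = 0.0183) at 0.5 mM and 0.20 ± 0.06 (adjusted p = 0.00677) at 10 mM and 48 h. The value at 10 mM and 24 h was 0.05 ± 0.06 (adjusted p = 0.563), which was called with quantile normalization at 0.22 (adjusted p = 3.26e-05) and with ribosomal centring at 0.14 (adjusted p = 0.0231). The rise at 0.5 mM and 48 h lost its call without replicate 1 of 0.5 mM, at 0.16 (adjusted p = 0.0524), or replicate 3 of water, at 0.17 (adjusted p = 0.0641). The call was also lost in limma fits with only the groups compared, at 0.20 (adjusted p = 0.073), and with array weights, at 0.15 (adjusted p = 0.0622).

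Within an array Etfa minus Etfb ran from -0.08 to 0.20 in water and from -0.32 to -0.13 at 10 mM after 24 h, and from 0.16 to 0.33 and from -0.37 to -0.29 after 48 h. The subunits shifted against each other by -0.33 and -0.60 at 10 mM (exact permutation tests, p = 0.00794 each, 0.0159 adjusted over 12). At 0.5 mM the shift was -0.04 at 24 h (exact p = 0.492) and -0.23 at 48 h (exact p = 0.0159, adjusted 0.0272). Without the 3 arrays of high actin ratio that last shift was -0.14 (exact permutation test, adjusted p = 0.0918), whereas the 10 mM shifts were -0.37 and -0.60 (adjusted p = 0.0238 each).

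**Figure D3:**
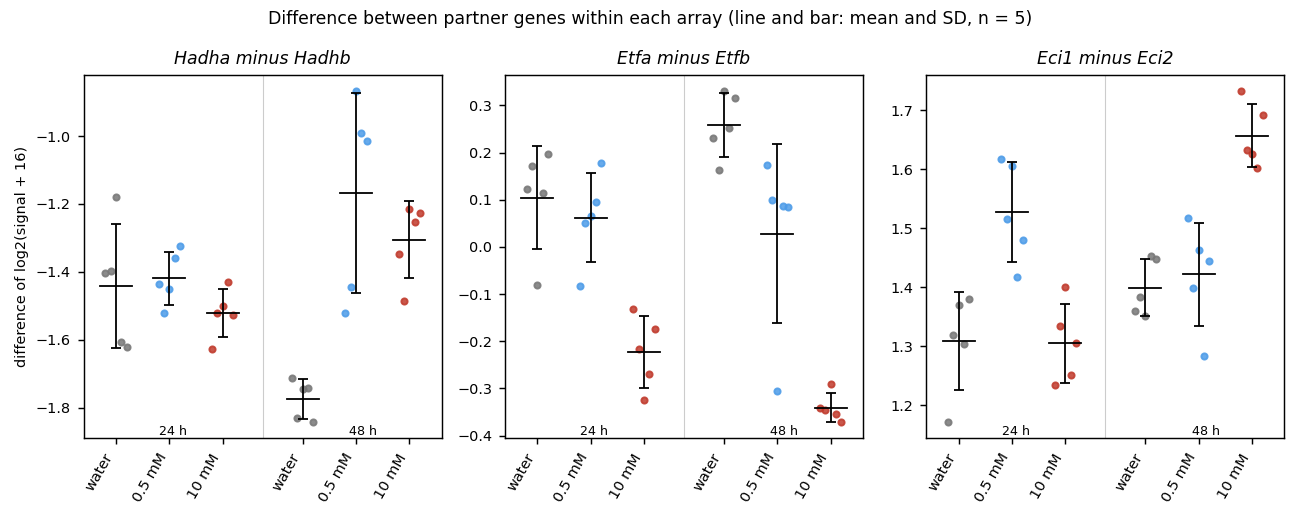
Difference of log2(signal + 16) between partner genes within each array, 1 point per culture, with means and SDs of 5 cultures and doses coloured grey (water), blue (0.5 mM) and red (10 mM). At 48 h every treated array lies above water for Hadha minus Hadhb, and every 10 mM array lies below water for Etfa minus Etfb at both times.

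**Figure D4:**
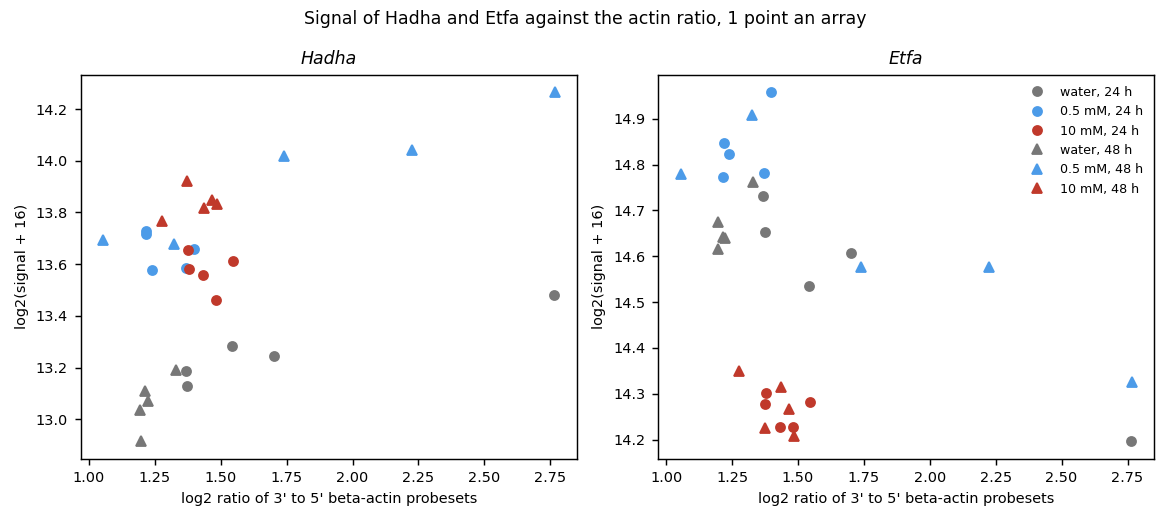
Signal of Hadha (left) and Etfa (right), as log2(signal + 16), against the 3′/5′ beta-actin ratio (log2), 1 point per array, with circles for 24 h and triangles for 48 h. In the 0.5 mM group at 48 h replicates 3, 4 and 5, the arrays of highest ratio in that group, had the highest Hadha, 14.02 to 14.27, and the lowest Etfa, 14.33 to 14.58; the part of RNA integrity in these values was not tested.

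Without the 3 arrays of high actin ratio, all brightest probesets that were called higher at 0.5 mM kept their calls. At 24 h and 48 h the 0.5 mM changes were then 0.44 and 0.73 for Hadha, 0.35 and 0.28 for Hadhb, and 0.31 and 0.38 for Echs1. They were 0.77 and 0.73 for Hadh and 0.60 and 0.51 for Acaa2 by its brightest probeset. For the auxiliary enzymes they were 0.74 and 0.49 (Eci1), 0.51 and 0.44 (Eci2), and 0.48 and 0.44 (Decr1), and for Etfb 0.29 and 0.23. At 10 mM against water the arrays enter the means only at 24 h, through replicate 3 of water. There the values without them were 0.36 for Hadha, 0.38 for Hadhb, -0.53 for Echs1, -0.58 for Acaa2, 0.22 for Eci1, 0.21 for Eci2 and -0.37 for Etfa, each with the same call, and 0.01 for Etfb, still not called. Hadh lost its call there, as given above, and Decr1 was called lower at -0.16 (limma, adjusted p = 0.0443). Among the other probesets at 24 h, Hadha 1394857_at was 0.90 and Acaa2 1380504_at 0.55 at 10 mM, and Eci1 1370961_at was 1.25 at 0.5 mM, each with its call kept. Eci1 minus Eci2 was 0.23 at 0.5 mM and 24 h (exact permutation test, adjusted p = 0.0357). The 5 differences in the effect of 10 mM between the times, described below, were then 0.41 for Hadha, 0.57 and 0.65 for Acaa2 1386880_at and 1380504_at, 0.26 for Eci1 and 0.38 for Decr1, and all kept their calls.

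Compared directly, 8 of the 10 genes were lower at 10 mM than at 0.5 mM after 24 h and 6 after 48 h, and none was higher, also at an unadjusted limma p under 0.05. Over all genes 26.4% and 23.8% were called lower in these comparisons and 59.3% and 53.8% in either direction, and the median difference of the 10 genes was -0.54 and -0.21, beside 0.01 and 0.04. With quantile normalization this median was -0.22 and -0.07, and with ribosomal centring -0.38 and -0.22, beside 0.18 and 0.04 for all genes. Again 8 and 6 genes were lower and none higher without the 3 arrays of high actin ratio. Counted by probeset, 9 and 6 of 15 were lower, beside 22.9% and 19.7%, and 2 were higher at each time, beside 28.2% and 26.5%, namely Hadha 1394857_at and Acaa2 1380504_at. The 24 h differences were -1.18 ± 0.06 for Acaa2 (adjusted p = 1.97e-17), -0.84 ± 0.08 for Echs1, -0.67 ± 0.06 for Hadh, -0.64 ± 0.07 for Decr1 and -0.57 ± 0.08 for Etfa. They were -0.52 ± 0.06 for Eci1, -0.29 ± 0.05 for Eci2 and -0.29 ± 0.06 for Etfb, the last with an adjusted p of 0.000165. After 48 h the genes still lower were Echs1, Acaa2 (-0.56), Hadh (-0.41), Etfa (-0.36), Eci2 (-0.24) and Decr1 (-0.19, adjusted p = 0.0226). Eci1 and Etfb then differed by -0.01 (95% interval -0.12 to 0.11) and 0.01 (-0.12 to 0.13). The Decr1 call at 48 h was lost without replicate 1 of 0.5 mM or replicate 3 or 5 of 10 mM, with -0.14 as the value nearest to 0. These dose differences also moved with scaling: quantile normalization left 7 genes lower and 1, Hadhb, higher at 24 h, and 5 lower and 3 higher (Hadhb, Eci1 and Etfb) at 48 h. With it Etfb differed by -0.01 at 24 h (adjusted p = 0.896), Decr1 by 0.02 at 48 h (adjusted p = 0.695) and Eci1 by 0.21 at 48 h (adjusted p = 0.000188). Ribosomal centring left 7 lower and 1 higher at 24 h, where Eci2 was -0.12 (adjusted p = 0.138), and 6 lower at 48 h.

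Time in culture alone gave few calls in this set. Between 24 h and 48 h in water none of the brightest probesets was called, with changes from -0.20 for Hadha to 0.16 for Eci1. At an unadjusted limma p under 0.05, 2 were higher (Hadhb and Eci1) and 1 lower (Hadha). Within an array Hadha minus Hadhb in water ran from -1.62 to -1.18 at 24 h and from -1.84 to -1.71 at 48 h. These ranges do not overlap, and their difference was not tested. The single call among 15 probesets, beside 7.77% of all, was a fall of Acaa2 1380504_at (-0.44 ± 0.11, adjusted p = 0.0133). The effect of 10 mM was higher at 48 h than at 24 h for 5 probesets, beside 5.80% of all: Acaa2 1386880_at by 0.56 ± 0.08 (adjusted p = 9.53e-06), Acaa2 1380504_at by 0.56, Hadha by 0.47, Decr1 by 0.32 and Eci1 by 0.27. At 0.5 mM 3 probesets differed between the times, beside 19.5% of all, namely Hadha (0.49 ± 0.12, adjusted p = 0.00415), Etfa (-0.33 ± 0.11, adjusted p = 0.0425) and Eci1 (-0.24 ± 0.08, adjusted p = 0.0339). None of these 3 was called without the arrays of high actin ratio, where they were 0.29 (adjusted p = 0.0586), -0.12 (adjusted p = 0.429) and -0.25 (adjusted p = 0.073). Ribosomal centring turned the Eci1 value to 0.05 (adjusted p = 0.727), beside a median of all probesets that moved from -0.08 to 0.21.

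Most of the genes for enzymes that feed electrons to the flavoprotein were called higher at 0.5 mM, and at 10 mM more were called lower than higher. Of these 14 genes, the acceptor Etfdh included, 11 rose at 0.5 mM after 24 h and 13 after 48 h and none fell, also at an unadjusted limma p under 0.05, with medians of 0.40 and 0.61. Over all genes 12.7% and 11.9% were called higher. The counts were 12 and 13 without the 3 arrays of high actin ratio, and at 24 h they were 9 with quantile normalization and 8 with ribosomal centring. The largest called changes were Acadsb (1.50 ± 0.50, limma, adjusted p = 0.0282), Acadm (0.86), the medium-chain acyl-CoA dehydrogenase, Acad8 (0.72) and Gcdh (0.56) at 24 h. After 48 h they were Acadm (0.85), Acad10 (0.82), Acads (0.77) and Sardh (0.73). Acadsb was then not called, at -0.76 ± 0.50. Between 24 h and 48 h in water Acadsb changed by 1.24 ± 0.50, also not called. At 10 mM 4 rose and 9 fell after 24 h, and 2 rose and 8 fell after 48 h, with medians of -0.58 and -0.28. These 13 and 10 calls stand beside 56.1% and 49.8% of all genes called in either direction at 10 mM. The 24 h counts were the same without the 3 arrays, and with quantile normalization they were 4 higher and 8 lower. Sardh, sarcosine dehydrogenase, fell most (-2.51), with Acadvl, the very-long-chain enzyme, at -1.41, Dmgdh at -1.16 and Acadsb higher by 1.52 ± 0.50 (limma, adjusted p = 0.0123). After 48 h the largest were Sardh (-1.48), Dmgdh (-1.14), Acadm (0.68) and Acadl (-0.59), while Acadsb was not called, at -0.09 ± 0.50. Etfdh, the oxidoreductase that takes electrons from Etfa and Etfb and is named here after its values were seen, changed by 0.39 and 0.41 at 0.5 mM and by -0.75 and -0.25 at 10 mM, each called. With ribosomal centring 2 of the 14 rose and 4 fell at 10 mM and 48 h, beside a median of all genes of 0.23.

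Genes of acyl-CoA entry and accessory steps mostly rose at 10 mM. Of 12, 8 rose and 2 fell at 10 mM after 24 h and 8 rose and none fell after 48 h, with medians of 0.51 and 0.70. Over all genes 31.1% and 27.6% were called higher in these comparisons. After 24 h 8 rose and 3 fell without the 3 arrays of high actin ratio. The largest changes were Acot2 (0.87 and 1.25), a mitochondrial thioesterase, Acsl1 (0.87 and 1.22), which activates long-chain fatty acids, and Cpt1a (0.72 and 0.89), which commits them to import. Mecr at 24 h (0.82) and Cpt1b at 48 h (1.16) were also among the largest 4. At 0.5 mM 6 rose and 1 fell after 24 h and 5 rose after 48 h, with medians of 0.15 and 0.20, beside 12.7% and 11.9% of all genes called higher. The 48 h count was 8 with ribosomal centring, 7 with quantile normalization and 6 without the 3 arrays. Cpt1b (0.94 and 1.39), Acsl1 (0.92 and 0.96) and Acsm3 (0.79 and 1.18) were the largest at both times, with Slc25a20 (0.78) at 24 h and Cpt2 (0.50) at 48 h. The 1 gene that fell at 24 h, named after its value was seen, was Cpt1a (-0.47, adjusted p = 0.0045).

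Of the 10 peroxisomal counterparts 7 were tested. At 0.5 mM 6 rose after 24 h and 5 after 48 h, with medians of 0.31 and 0.56, beside 12.7% and 11.9% of all genes called higher. These counts were 7 and 5 without the 3 arrays of high actin ratio. Ehhadh, the peroxisomal bifunctional enzyme and a classic PPAR alpha target, led with 1.88 and 2.23, before Decr2 (0.97 and 0.82) and Ech1 (0.68 and 0.74). At 10 mM 2 rose and 3 fell after 24 h and 2 rose and 2 fell after 48 h, shares near the 56.1% and 49.8% of all genes called in either direction. After 24 h 2 rose and 4 fell without the 3 arrays. Ehhadh rose by 1.40 and 2.44 and Ech1 by 0.49 and 0.91, while Pecr (-0.97 and -0.51) and Hsd17b4 (-0.86 and -0.17) fell. The medians at 10 mM were -0.17 and -0.11, and their sign turned with quantile normalization at 24 h (0.05) and with ribosomal centring at 48 h (0.09).

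**Figure D5:**
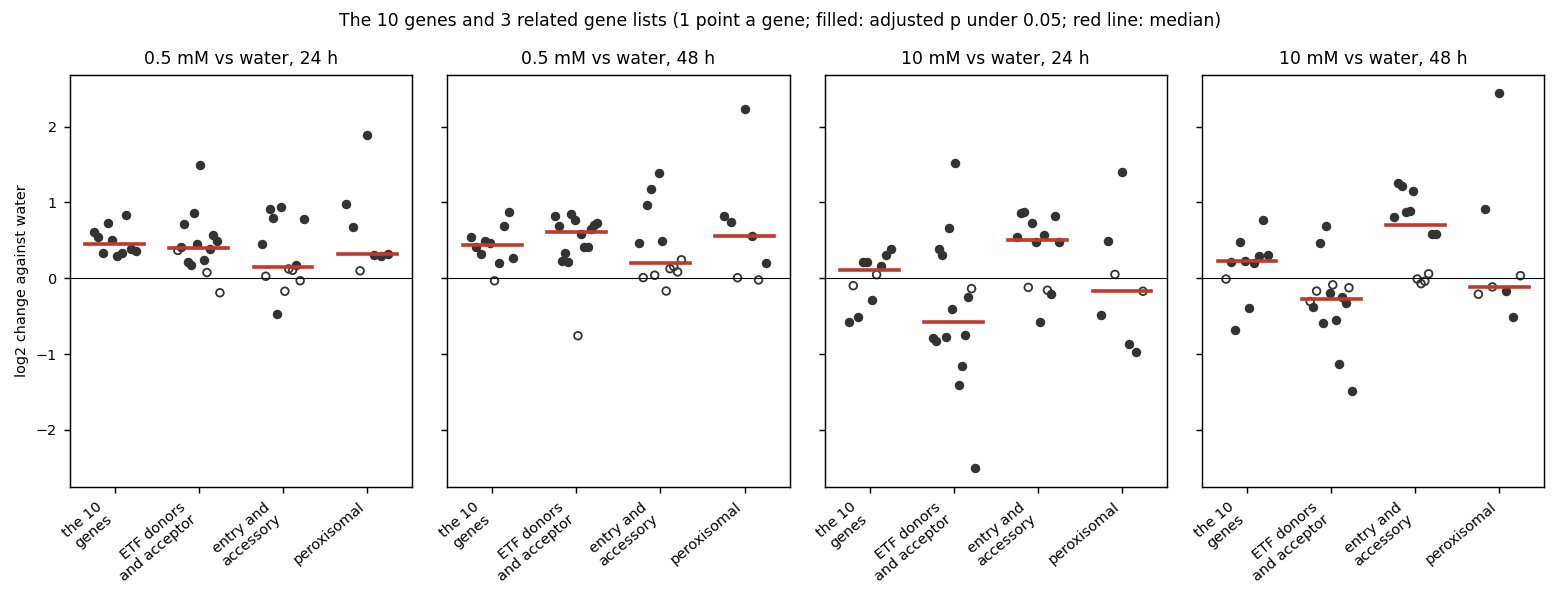
Log2 change against water of the 10 genes and of the 3 related lists, 1 point per gene by its brightest probeset, filled where the adjusted p was under 0.05, with red lines at the medians. The medians of the 10 genes were 0.45 and 0.44 at 0.5 mM and 0.10 and 0.22 at 10 mM, and those of the electron donors and acceptor were 0.40 and 0.61 at 0.5 mM and -0.58 and -0.28 at 10 mM.

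The genes whose 6 group means were most like those of a member, by the root mean square difference of centred log2 means over 11604 genes, were for Hadha Ttc38 (0.0599), Tal1 (0.0662) and Krt17 (0.0736). For Decr1 they were Disp3 (0.0453), Zfp629 (0.0563) and Prtfdc1 (0.0633), and for Etfb P2rx6 (0.0361), Rnaset2 (0.0383) and Abr (0.0401). In that order their percentiles of mean signal were 60.3, 40.3 and 52.2 for Hadha's, 43.3, 65.0 and 91.3 for Decr1's and 50.4, 97.1 and 56.3 for Etfb's. Hadha, Decr1 and Etfb themselves lay at 96.2, 98.9 and 98.4, so most of these likenesses are to much dimmer probesets. Of the other members, Eci2 and Eci1 came nearest to Hadha at 0.177 and 0.178, then Hadhb at 0.188, and Echs1 was the farthest at 0.505. These are descriptions over 6 means of the same arrays, with no test.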

How the data were processed

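RNA of 30 hepatocyte cultures was hybridised to 1-colour Affymetrix arrays. The deposited values are linear MAS5 signal intensities per probeset, per the submitters' processing notes; the MAS5 version is not stated. The file's values show that the authors scaled every array to a common trimmed mean. Intensities were used as log2(signal + 16). All 31042 non-control probesets were ranked by mean, those under the 30th percentile were left out, and 21729 were tested. Limma 3.58.1 (R 4.3.3; lmFit, eBayes with trend) was fitted to 6 groups of 5 arrays with 24 residual degrees of freedom. Each of 9 comparisons was adjusted by Benjamini-Hochberg over all probesets; calls needed an adjusted p below 0.05 and no minimum fold. Alternatives were other pseudocounts, filters, scalings, variance settings and covariates, and leaving out arrays. The code was tested on simulated data.

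Of the probesets, 20826 had a single gene symbol, 436 several and 9780 none. A gene is given by its brightest probeset. Differences between partner genes within arrays used exact two-sided permutation tests (all splits enumerated in Python 3.11.15), adjusted over 12. From each list the text names up to 4 called genes with the largest change, and for 3 member genes the 3 nearest genes in group means. Members and lists were chosen with earlier results of these data known. Replicate numbers are names in accession order. Deviations of arrays sharing a run of 6 in the running numbers of the titles had r from -0.14 to 0.39 (median 0.00 over 75 pairs). Arrays of different runs and groups had r from -0.35 to 0.25 (median -0.002 over 300 pairs). The runs were not used as pairs in the main fit, and a plate or batch shared by some arrays was not tested. The number of arrays limits the precision.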

Additional observations from a re-analysis of the deposited data

Results flagged for a closer look

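In 5 of 90 groups of 5 arrays examined, 1 array stood apart from the other 4; chance does this in about 1 of 20 groups. Hadhb read 14.66 in replicate 3 of water at 48 h, beside 14.85 to 14.90 in the others. The dim Hadh probeset 1389922_at read 6.94 in replicate 3 of water at 24 h, the array with a high actin ratio, beside 8.60 to 8.94. The dim Eci1 probeset 1370961_at read 7.27 in replicate 5 of water at 48 h, beside 8.28 to 8.68. Eci2 read 14.03 in replicate 5 of 0.5 mM at 48 h, beside 14.17 to 14.21, and Decr1 read 15.35 in replicate 1 of that group, beside 15.09 to 15.14.

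The effect of valproate differed between 24 h and 48 h for 8 combinations of probeset and dose, tested as an interaction in limma. These were 5 of 15 probesets at 10 mM, beside 5.80% of all probesets called higher, and 3 of 15 at 0.5 mM, beside 19.5% of all called in either direction, a share near the background. At 10 mM the effect was higher at 48 h by 0.47 ± 0.12 (SE) for Hadha (adjusted p = 0.00692), by 0.56 ± 0.08 for Acaa2 1386880_at (adjusted p = 9.53e-06), by 0.56 ± 0.16 for Acaa2 1380504_at (adjusted p = 0.0198), by 0.27 ± 0.08 for Eci1 (adjusted p = 0.0203) and by 0.32 ± 0.10 for Decr1 (adjusted p = 0.0281). The Decr1 call was lost without replicate 1 or 2 of 10 mM at 48 h, replicate 4 of 10 mM at 24 h, replicate 3 or 5 of water at 48 h, or replicate 5 of water at 24 h, with 0.27 as the lowest value.

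At 0.5 mM the difference was 0.49 ± 0.12 for Hadha (adjusted p = 0.00415), -0.24 ± 0.08 for Eci1 (adjusted p = 0.0339) and -0.33 ± 0.11 for Etfa (adjusted p = 0.0425). With the actin ratio as a covariate these were 0.19 (adjusted p = 0.289), -0.26 (adjusted p = 0.13) and -0.01 (adjusted p = 0.979). The Eci1 call was also lost without replicate 1 or 2 of water at 24 h, replicate 1 of water at 48 h, replicate 1 or 5 of 0.5 mM at 24 h, or replicate 4 or 5 of 0.5 mM at 48 h, with values from -0.22 to -0.19. The Etfa call was lost without replicate 1 or 3 of water at 24 h, replicate 1, 2, 4 or 5 of water at 48 h, replicate 1, 3 or 5 of 0.5 mM at 24 h, or replicate 3, 4 or 5 of 0.5 mM at 48 h, with values from -0.33 to -0.24.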

How the results depend on the processing

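A reversal here is a change of sign where the main or the alternative value was called. Sign changes of values called in neither fit were counted as kept. Over the 15 probesets and 9 comparisons, alternatives other than leaving out 1 array gave 1540 values that kept their call status. In these alternatives 29 gained a call, 27 lost one and 6 reversed. Leaving out each array in turn, 1604 kept their call status, 11 gained a call, 35 lost one and none reversed in that sense. The counts of probesets called against water, and between doses, stayed within 1.5 times the reported count under every alternative. In water over time (1 called) the count was 3 with quantile normalization, 2 with the filter at the 50th percentile, 2 with array weights and 0 with only the groups compared. Leaving out an array gave 1 to 3: 3 without replicate 3 of water at 48 h and 2 without replicate 5 of water at 24 h. For the difference between times at 0.5 mM (3 called) it was 1 with quantile normalization, no filter, no trend or only the groups compared, 0 with the actin covariate or without the 3 arrays of highest actin ratio, and 1 to 3 without single arrays. At 10 mM (5 called) it was 3 with no trend. The reversals were Acaa2 1386880_at at 10 mM and 48 h (0.21 quantile, 0.19 ribosomal centring), Eci1 and Decr1 at 10 mM against 0.5 mM at 48 h (0.21 and 0.025, quantile), and, between times at 0.5 mM, Acaa2 1386880_at and Eci1 (0.23 and 0.047, ribosomal centring). Of the differences between partner genes, quantile normalization gave -0.19 for Hadha minus Hadhb and 0.12 for Eci1 minus Eci2 at 10 mM and 24 h, and 0.13 for the latter at 0.5 mM and 24 h. The mean of all probesets gave 0.18 (10 mM) and -0.10 (0.5 mM) for Hadha minus Hadhb at 48 h; for Eci1 minus Eci2 it gave -0.013 (10 mM, 48 h) and 0.43 (0.5 mM, 24 h). Etfa minus Etfb at 0.5 mM and 48 h, with 1 probeset each, kept its value of -0.23 there, and only its p adjusted over the 12 tests moved, from 0.0272 to 0.0635 (exact permutation test). Without the 3 arrays Etfa minus Etfb was -0.14 at 0.5 mM and 48 h. Apart from the construction of each alternative, the cause was not tested. With runs of 6 arrays as a replicate block the only change of call was Acaa2 1380504_at at 0.5 mM and 48 h (0.30, adjusted p = 0.0434).

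Ribosomal centring moved the split of higher against lower probesets from 5185 and 3889 to 7272 and 2131 at 10 mM and 48 h, from 2500 and 2664 to 1196 and 2772 at 0.5 mM and 24 h, and from 2216 and 2581 to 4586 and 790 at 0.5 mM and 48 h. Between doses at 24 h it moved from 6118 and 4968 to 7334 and 3147, and in water over time from 853 and 835 to 209 and 1048. Between times it moved from 1261 and 1024 to 1354 and 302 at 10 mM, and from 2135 and 2098 to 4364 and 370 at 0.5 mM. The median of all probesets moved to 0.24 at 10 mM and 0.20 at 0.5 mM after 48 h, and to 0.16 between doses at 24 h. The 3 dimmest member probesets, 1394763_at, 1370961_at and 1394857_at, lay at the 31.1, 44.8 and 55.2 percentile of mean signal. How near they stood to background was not tested.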

Other observations

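Probeset 1372765_a_at carries the symbols of both Eci2 and Eci3, a related peroxisomal isomerase, and was left out of the 15. It rose by 0.32 ± 0.09 (SE) at 0.5 mM and 24 h (limma, adjusted p = 0.011). Its other changes against water were 0.17 at 0.5 mM and 48 h (adjusted p = 0.19), and 0.04 and -0.00 at 10 mM after 24 h and 48 h (adjusted p = 0.742 and 0.996). Eci2's own probeset was called higher in all 4 of these comparisons.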
